A study of Mus musculus with 9 samples.

Results

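The Rbfox and Nova genes encode 2 families of RNA-binding proteins that choose which exons enter neuronal mRNAs. Their 5 mouse genes, Rbfox1, Rbfox2, Rbfox3, Nova1 and Nova2, were taken by gene symbol from expression tables that list 22667 genes and from splicing tables that list 283013 and 285260 events. Of those events 87 and 89 lie in the 5 genes. The samples are polyA RNA of N2A, a line derived from a mouse neuroblastoma, harvested 48 hours after siRNA pools were transfected. In the first experiment 1 library each came from cells with siRNAs against Mbnl1 together with Mbnl2 (siMbnl1/Mbnl2), from cells with siRNAs against Nacc1 (siNacc1) and from cells with a non-targeting pool, the control. In the second experiment 2 libraries each, lettered a and b in the tables, came from cells with siRNAs against Srrm4 (siSrrm4), against Zfp871 (siZfp871) and from cells with a non-targeting pool, again the control. Every group is the same line under transient transfection, so each knockdown is partial. Whether libraries a and b were separate cultures is not stated, so the p-values rest on a library-to-library spread that could be purely technical.

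Rbfox proteins bind RNA through a single recognition motif domain that reads the word UGCAUG, and Nova proteins bind clusters of short YCAY words through KH domains. Where a protein binds relative to an exon sets the outcome: bound downstream it usually favours inclusion, bound upstream or within it usually favours skipping. Rbfox3 is the neuronal nuclear antigen NeuN, used as a marker of mature neurons, Rbfox1 is found in neurons, heart and muscle, and Rbfox2 is expressed more widely. Nova1 and Nova2 are found largely in the nervous system. All members are themselves spliced in alternative forms, and some of those exons are targets of the members' own proteins.

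The exons below carry the splicing results, and they were read from GENCODE vM21 transcripts (GRCm38) after matching each measured exon by its length and the lengths of its flanking introns, which placed 21 of 30 member exons. A 93-nt exon lies within the RNA recognition domain of each Rbfox protein, and forms that skip it have been described as lacking RNA binding. It is shown for the 3 Rbfox genes with capitals where a base differs from Rbfox2. Its position is chr15:77105577-77105669 on the minus strand for Rbfox2, chr16:7292185-7292277 on the plus strand for Rbfox1 and chr11:118502842-118502934 on the minus strand for Rbfox3 (GRCm38). The Rbfox1 exon has the same base as Rbfox2 at 86 of 93 positions (92.5%) and the Rbfox3 exon at 69 (74.2%).
Rbfox2 93-nt exon: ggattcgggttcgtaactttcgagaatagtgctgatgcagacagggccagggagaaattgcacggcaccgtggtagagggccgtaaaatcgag
Rbfox1 93-nt exon: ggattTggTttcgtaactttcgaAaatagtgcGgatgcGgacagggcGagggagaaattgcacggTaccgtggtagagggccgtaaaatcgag
Rbfox3 93-nt exon: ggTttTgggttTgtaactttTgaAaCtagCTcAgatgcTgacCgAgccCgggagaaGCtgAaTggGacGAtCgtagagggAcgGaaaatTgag

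Near the 3′ end of the coding region Rbfox1 and Rbfox2 hold a 40-nt exon and a 43-nt exon, the 43-nt one known as the muscle-type exon. Both lengths leave a remainder of 1 when divided by 3, so including either alone changes the reading frame of what follows, relative to skipping both. By length, exchanging the 40-nt exon for the 43-nt exon keeps that frame. Capitals mark bases that differ from Rbfox2. The exons lie at chr15:77094451-77094490 and chr15:77091812-77091854 (minus strand) in Rbfox2 and at chr16:7363865-7363904 and chr16:7369801-7369843 (plus strand) in Rbfox1 (GRCm38). Identity was 85% for the 40-nt and 62.8% for the 43-nt exon.
Rbfox2 40-nt exon: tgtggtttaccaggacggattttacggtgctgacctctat
Rbfox1 40-nt exon: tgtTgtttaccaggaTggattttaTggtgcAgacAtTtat
Rbfox2 43-nt exon: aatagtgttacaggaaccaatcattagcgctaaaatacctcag
Rbfox1 43-nt exon: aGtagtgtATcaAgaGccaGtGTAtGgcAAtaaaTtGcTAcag

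The other Rbfox2 segments that varied are a coding 51-nt exon in the 5′ part of the gene, at chr15:77231387-77231437, and 2 exons with tandem acceptors, at chr15:77097940-77098084 and chr15:77116921-77117067 (minus strand, GRCm38). In the exons of 145 nt and 147 nt the capitals are the 12 and 3 bases that enter the mRNA only when the upstream acceptor is used. Each of these stretches ends in AG, the dinucleotide of the downstream acceptor. All of these lengths except that of the 145-nt exon are multiples of 3, and so are both added stretches.
Rbfox2 51-nt exon: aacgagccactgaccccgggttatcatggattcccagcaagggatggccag
Rbfox2 145-nt exon: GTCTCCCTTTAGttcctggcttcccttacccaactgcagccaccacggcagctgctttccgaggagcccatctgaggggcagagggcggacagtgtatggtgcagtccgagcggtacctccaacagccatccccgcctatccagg
Rbfox2 147-nt exon: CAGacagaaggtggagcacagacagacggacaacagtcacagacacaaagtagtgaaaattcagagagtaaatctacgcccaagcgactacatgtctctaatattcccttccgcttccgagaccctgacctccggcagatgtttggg

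Nova1 has a 72-nt exon, at chr12:46713498-46713569 on the minus strand (GRCm38), that the Nova1 protein is known to bind and to repress. Capitals mark the words that match YCAY, where each Y is a C or a T, searched on the sense strand. The exon holds 5 of them. Among the 1296 annotated coding exons of 72 nt, 67.9% hold at least 1, the median is 1, and 13 hold 5 or more, a description that says nothing of binding in these cells.
Nova1 72-nt exon: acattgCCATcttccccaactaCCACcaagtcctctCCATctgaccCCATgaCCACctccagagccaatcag

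Depth ran from 50086176 to 63715449 gene counts a library in the first experiment, and the second had 44186088 to 61159670. Each targeted mRNA was lower in its own knockdown. Mbnl1 and Mbnl2 stood at 45.2 and 18.2 CPM after siMbnl1/Mbnl2, against 124.2 and 65.7 in control, and Nacc1 at 52.0 after siNacc1, against 208.5 in control, where CPM are counts per library of equal size, scaled with TMM factors within each experiment. In the second experiment the edgeR quasi-likelihood test gave log2 fold changes of -1.59 for Srrm4 (SE 0.19, adjusted p = 0.0222) and -1.84 for Zfp871 (SE 0.25, adjusted p = 0.0271), each in its own knockdown. Some targeted mRNAs also differed in another knockdown. Srrm4 was at 45.3 and 53.9 CPM after siZfp871, against 66.9 and 96.1 in control (log2 fold change -0.73, SE 0.19, edgeR adjusted p = 0.099). Nacc1 was higher after siZfp871 (0.28, adjusted p = 0.196), and Mbnl1 stood at 82.7 CPM after siNacc1, against 124.2 in control. All 9 markers of noradrenergic neuroblasts reported here (Th, Dbh, Phox2a, Gata2, Gata3, Chga, Chgb, Hand2 and Isl1) had a median of 1 CPM or more, and their levels summed to between 1898 and 2381 CPM (first experiment) or between 2142 and 3243 CPM (second experiment). Of 8 mature neuron markers found, Rbfox3 among them, 4 (Mtap2, Snap25, Syp and Syn1) did so. Of 5 glial markers reported here 1, Mbp, reached 1 CPM in each experiment, and the 5 summed to between 1.6 and 3.65 CPM. Of 6 muscle and 5 fibroblast markers 1 each, Tnnt2 and Pdgfra, reached it in the first experiment and 0 in the second, and 0 of 4 immune markers in either.

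N2A cells expressed Rbfox2 at the highest level of the 5 genes and Rbfox3 at almost none, in every library. Levels of different genes were compared per length, as cRPKM, the authors' RPKM-type values, in the first experiment and in the second as counts scaled to the library total and to the gene length that the first experiment's counts and cRPKM imply. On that scale Rbfox2 ranged over the 9 libraries from 24.0 to 39.9 with a median of 30.2, Nova2 from 6.64 to 12.9 with a median of 10.6, Nova1 from 3.76 to 8.32 with a median of 6.53 and Rbfox1 from 0.94 to 2.05 with a median of 1.54. Ranges of Nova2 and Nova1 overlapped, but within every library Nova2 was above Nova1, by 1.08 to 2.52 times, and Rbfox2 was above Nova2 by 1.94 to 4.01 times and above Rbfox1 by 12.1 to 30.1 times. The remaining neighbours in the order, Nova1 above Rbfox1 and Rbfox1 above Rbfox3, were separated in all 9 libraries with ranges that did not overlap. Rbfox3 had 2 counts after siMbnl1/Mbnl2, 0 after siNacc1 and 2 in the control of the first experiment. In the second it had 0 and 2 counts after siSrrm4, 1 and 0 after siZfp871, and 1 and 0 in control, so no fold change is given for it. A floor of 3 counts corresponds to 0.0477 to 0.0677 CPM in these libraries. Since these are bulk samples, fewer cells expressing a gene and less RNA per cell cannot be told apart.

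**Figure D1:**
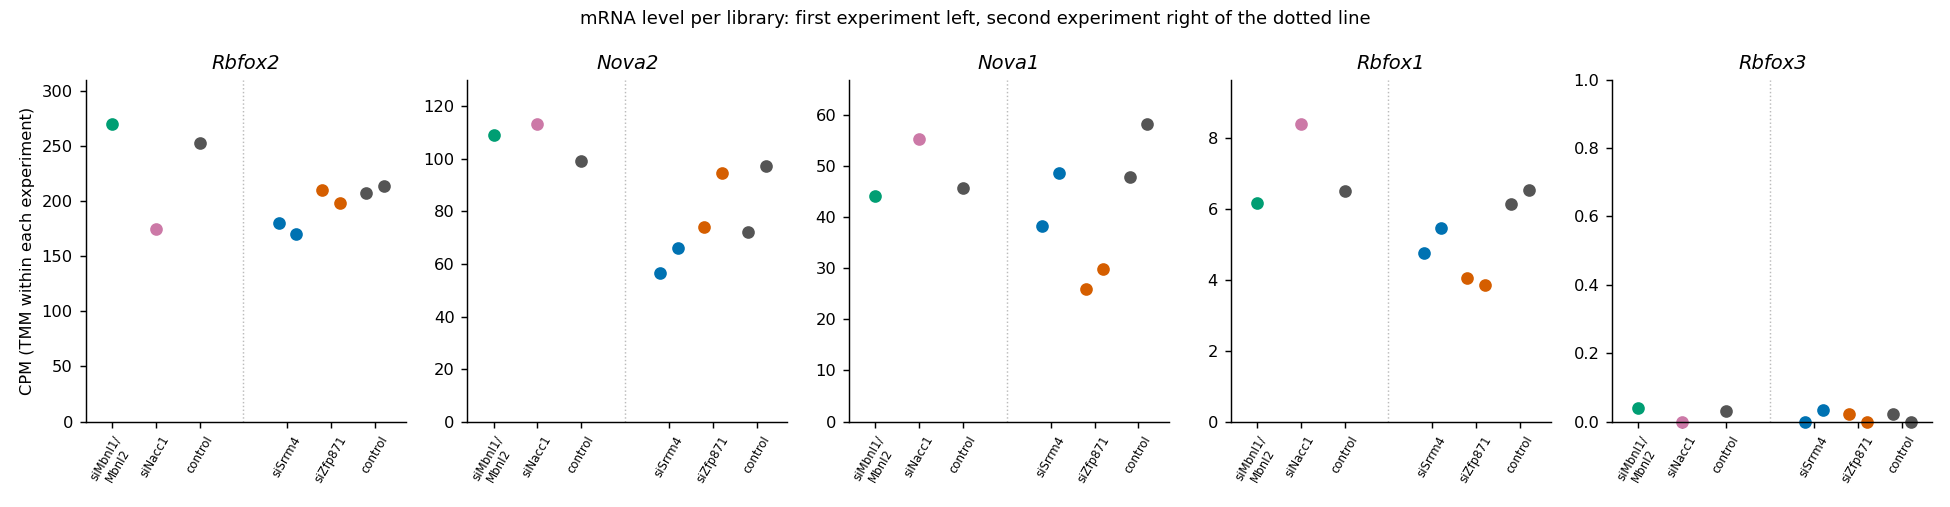
Level of each mRNA in the 9 libraries, in CPM scaled with TMM within each experiment, on a linear axis from 0 that differs between panels, 1 point a library, with the first experiment left and the second right of the dotted line. Within the second experiment Nova1 and Rbfox1 are lowest in the siZfp871 libraries and Nova2 and Rbfox2 in the siSrrm4 libraries, and Rbfox3 lies at 0.0388 or less throughout.

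Nova1 was the 1 member called by edgeR without a replicate block, and it was lower after siZfp871. After siZfp871 Nova1 (ENSMUSG00000021047) stood at 26.1 and 29.8 CPM in libraries a and b, against 47.9 and 58.2 in control. Its counts were 1155 and 1496, against 2216 and 2806. Both siZfp871 libraries lay below both control libraries. On the log2 scale the difference was -0.94 with a standard error of 0.16, or 1.92 times lower (2 libraries a group, edgeR quasi-likelihood test, Benjamini-Hochberg adjusted p = 0.0439 over 12378 genes). The authors' deposited table lists -0.93 with an FDR of 9.53e-05, and DESeq2 gave -0.93 with an adjusted p of 2.86e-05. Of the 4 members that passed the filter on low counts this was the 1 called, where 2.89% of all genes tested were called, 2.14% lower and 0.751% higher. That is 265 genes lower and 93 higher, and DESeq2 called 805 lower and 545 higher. The call was lost when any of 4 libraries was left out. The log2 fold change was -0.84 without siZfp871 a, -1.03 without siZfp871 b, -1.06 without control a and -0.78 without control b. Calls over all genes also fell in each of these fits, so the loss is not particular to Nova1. In these fits the group left with 1 library is given the spread of the remaining groups.

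Rbfox1 (ENSMUSG00000008658) moved in the same direction after siZfp871 without passing the threshold. It stood at 4.04 and 3.86 CPM after siZfp871, against 6.12 and 6.53 in control, from 179 and 194 counts against 283 and 315. The libraries did not overlap, and the log2 fold change was -0.69 (SE 0.17, 95% interval -1.11 to -0.27, edgeR adjusted p = 0.0941). DESeq2, run as an alternative, gave -0.69 with an adjusted p of 0.024. Rbfox2 (ENSMUSG00000033565), at 210.4 and 198.2 CPM after siZfp871 and 207.4 and 213.7 in control, had a log2 fold change of -0.06 (95% interval -0.26 to 0.15, adjusted p = 0.759). Nova2 (ENSMUSG00000030411), at 74.1 and 94.5 CPM after siZfp871 and 72.4 and 97.3 in control, had one of -0.02 (95% interval -0.48 to 0.44, adjusted p = 0.964). Per length, the ratio of Nova2 to Nova1 was 2.26 and 2.52 in the siZfp871 libraries, against 1.2 and 1.33 in control. With the column letter as a replicate block Rbfox1 also passed after siZfp871 (edgeR adjusted p = 0.00168), though the labels do not say that letters pair libraries. Of the 12378 genes tested, 3854 passed with that block. The median log2 fold change of the 4 members was -0.37, and that of all genes tested was -0.01.

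After siSrrm4 the 4 tested members all had log2 fold changes below 0, and 0 of them passed the threshold, where 4.7% of all genes tested did. Rbfox2 stood at 180.4 and 170.1 CPM after siSrrm4, against 207.4 and 213.7 in control (log2 fold change -0.26, SE 0.08, 95% interval -0.46 to -0.06, edgeR adjusted p = 0.122). DESeq2 gave -0.27 for Rbfox2 with an adjusted p of 0.0373. Nova2 stood at 56.5 and 66.3 CPM after siSrrm4, against 72.4 and 97.3 in control (-0.46, SE 0.19, 95% interval -0.92 to -0.01, adjusted p = 0.196). For Rbfox2 and Nova2 both siSrrm4 libraries were below both control libraries, and each 95% interval stops short of 0, while the p adjusted over all genes does not pass.

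Rbfox1 and Nova1 differed less clearly from control after siSrrm4. Rbfox1, at 4.76 and 5.47 CPM after siSrrm4 and 6.12 and 6.53 in control, had a log2 fold change of -0.30 (95% interval -0.72 to 0.11, edgeR adjusted p = 0.329). Nova1, at 38.4 and 48.7 CPM after siSrrm4 and 47.9 and 58.2 in control, had one of -0.28 (95% interval -0.67 to 0.11, adjusted p = 0.334). The Nova1 libraries overlapped, siSrrm4 library b being above control library a. With the letter as a replicate block Nova1, Nova2 and Rbfox2 passed after siSrrm4 (edgeR adjusted p = 0.0143, 0.000279 and 0.0104) and Rbfox1 did not (0.111). Of the 12378 genes tested, 4565 passed with that block. The median of the 4 members was -0.29, against -4.65e-05 over all genes tested. In the libraries of 3 of the 4 members, Rbfox1, Rbfox2 and Nova2, the groups did not overlap. The share of all genes with such a separation was not counted, so this is a description only.

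Set directly against each other, the siZfp871 and siSrrm4 libraries differed in opposite directions for the 2 pairs of genes, and 0 of 4 members passed the threshold, where 11.1% of all genes tested did. Nova1 was lower after siZfp871 than after siSrrm4 by a log2 fold change of -0.66 (SE 0.16, 95% interval -1.05 to -0.26, edgeR adjusted p = 0.0526), and Rbfox1 by -0.39 (95% interval -0.81 to 0.03, adjusted p = 0.197). The Nova1 difference passed the threshold with DESeq2 (-0.65, adjusted p = 0.00499). Nova2 had a log2 fold change of 0.44 (95% interval -0.01 to 0.90, adjusted p = 0.18) and Rbfox2 of 0.21 (95% interval 0.0044 to 0.41, adjusted p = 0.163). With the letter as a replicate block all 4 passed, where 5191 of the 12378 genes tested did. The edgeR adjusted p-values with that block were 9.14e-06 (Nova1), 0.000292 (Nova2), 0.0345 (Rbfox2) and 0.0456 (Rbfox1). For all 4 genes the libraries of the 2 knockdowns did not overlap, and how often this holds over all genes was not counted. The comparisons with control share the control libraries, so their directions are not independent of each other.

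**Figure D2:**
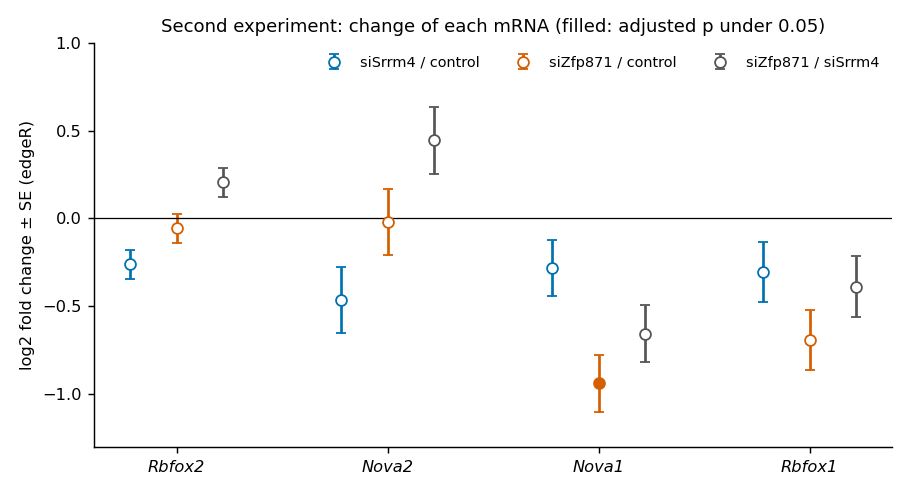
Log2 fold change of each member in the second experiment with its standard error from edgeR, for 3 comparisons of 2 libraries each. The single filled point is Nova1 after siZfp871 against control, at -0.94, and all siSrrm4 points lie below 0.

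The first experiment had 1 library a group and so no test. A size rule stood in for one: 50 or more counts in either library, and a level that differed by 1 or more on the log2 scale. It was passed by 0 of the 4 members with enough counts, where 1.02% of genes did after siMbnl1/Mbnl2 and 3.38% after siNacc1. The member farthest from control was Rbfox2 after siNacc1, at 24.7 cRPKM against 35.8 in control and a log2 fold change of -0.53. Its level of 175.2 CPM (95% exact Poisson interval 171.9 to 178.6) lay below the 252.9 (249 to 256.9) of control, with intervals that cover counting error only. Of the 11580 genes with enough counts, 12.3% were as far from control in either direction after siNacc1. The other members were higher after siNacc1 than in control: Rbfox1 by a log2 fold change of 0.37, Nova1 by 0.27 and Nova2 by 0.19.

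After siMbnl1/Mbnl2 the 4 members had log2 fold changes between -0.07 and 0.13. Rbfox2 stood at 269.8 CPM, against 252.9 in control (log2 fold change 0.09), Nova2 at 109.0 against 99.3 (0.13), Nova1 at 44.1 against 45.7 (-0.05) and Rbfox1 at 6.16 against 6.49 (-0.07). For Nova1 the direction turns with the scaling, since its cRPKM was 6.53 after siMbnl1/Mbnl2 and 6.48 in control. Of the 11604 genes with enough counts, 52.3% to 80.1% were as far from control as a member. The ratio of Rbfox2 to Rbfox1 per length was 25.3 after siMbnl1/Mbnl2 and 12.1 after siNacc1, against 22.5 in control.

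Nearly all Rbfox2 transcripts included the exon of the RNA recognition domain in every group. Inclusion is given as PSI, percent spliced in, which estimates the proportion of a gene's transcripts with the segment, as the authors give it for the first experiment and from their inclusion and exclusion reads for the second. The 93-nt exon of Rbfox2 had a PSI of 98.6% to 100% over the 9 libraries, on 370 to 690 reads each. The 43-nt muscle-type exon lay at the other end, at 0.31% to 2.83% on 90 to 220 reads, while the 40-nt exon in the same place was at 84.6% to 97.7% on 247 to 487 reads. The 225-nt and 54-nt exons of the Rbfox2 coding region were at 97.8% to 99.3% and 99.6% to 100%.

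The 51-nt exon of Rbfox2 (chr15:77061817-77061867 in mm9, the build that the submitters' processing notes name) showed the largest difference among the Rbfox2 exons in the second experiment. Its PSI was 78.4% and 78.6% after siSrrm4 and 81.3% and 79.7% after siZfp871, against 67.0% and 72.1% in control. All 4 knockdown libraries were above both control libraries. The difference from control was 8.92 points after siSrrm4 (edgeR quasi-likelihood adjusted p = 0.837) and 10.9 points after siZfp871 (adjusted p = 0.869), and neither was called. A call needed an adjusted p under 0.05 over 20266 cassette exons and a difference of at least 10 points. The first experiment had the exon at 68.8% after siMbnl1/Mbnl2 (95% exact binomial interval 61.8% to 75.6%) and 74.9% after siNacc1 (66.8% to 81.5%), against 79.1% in control (73.4% to 83.9%). The authors' deposited tables mark this exon as differential after siZfp871 and after siMbnl1/Mbnl2, the only member event they mark. The control of the first experiment, at 79.1%, lay within the range of the knockdown libraries of the second.

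The 40-nt exon of Rbfox2 (chr15:76924881-76924920, mm9) was at 91.9% and 91.0% after siSrrm4, 84.7% and 84.6% after siZfp871 and 90.6% and 90.4% in control. The siZfp871 libraries were the lowest of the 6, and libraries of a group agreed within 1 point. The difference from control was -5.87 points after siZfp871 (edgeR adjusted p = 0.869) and 0.93 after siSrrm4 (adjusted p = 1), and siZfp871 against siSrrm4 gave -6.79 points (adjusted p = 0.834). The first experiment had it at 88.8% after siMbnl1/Mbnl2 (95% exact binomial interval 85.2% to 91.7%) and 97.7% after siNacc1 (94.8% to 99.1%), against 89.4% in control (86% to 92.1%). The siNacc1 interval was the 1 among 21 member exons with enough reads that did not overlap its control. The share of all exons with separate intervals was not counted. At 8.37 points the difference stayed under the 20 points that the size rule also asks for. That rule, passed by 0 of the 21 member exons after either knockdown, was passed by 0.534% of exons after siMbnl1/Mbnl2 and 0.498% after siNacc1.

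Over the 3 comparisons of the second experiment 0 of 12 tested member exons were called by edgeR, where 0% of all exons were in each. At an unadjusted p under 0.05 there was 1 member exon after siSrrm4, 1 after siZfp871 and 0 between them, and of all exons tested 1042, 879 and 970 were under it. Of all exons limma called 11 after siSrrm4 and 0 in the other comparisons, none of them in a member. The median absolute difference of the member exons was 2.74 points after siSrrm4 and 2.52 after siZfp871, against 1.49 over all exons in each. The lowest p belonged to a rarely used 54-nt exon of Rbfox2 (chr15:77033792-77033845, mm9), named here after its values were seen. It was at 1.69% and 4.47% after siSrrm4, against 0.2% and 0% in control (edgeR adjusted p = 0.802).

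**Figure D3:**
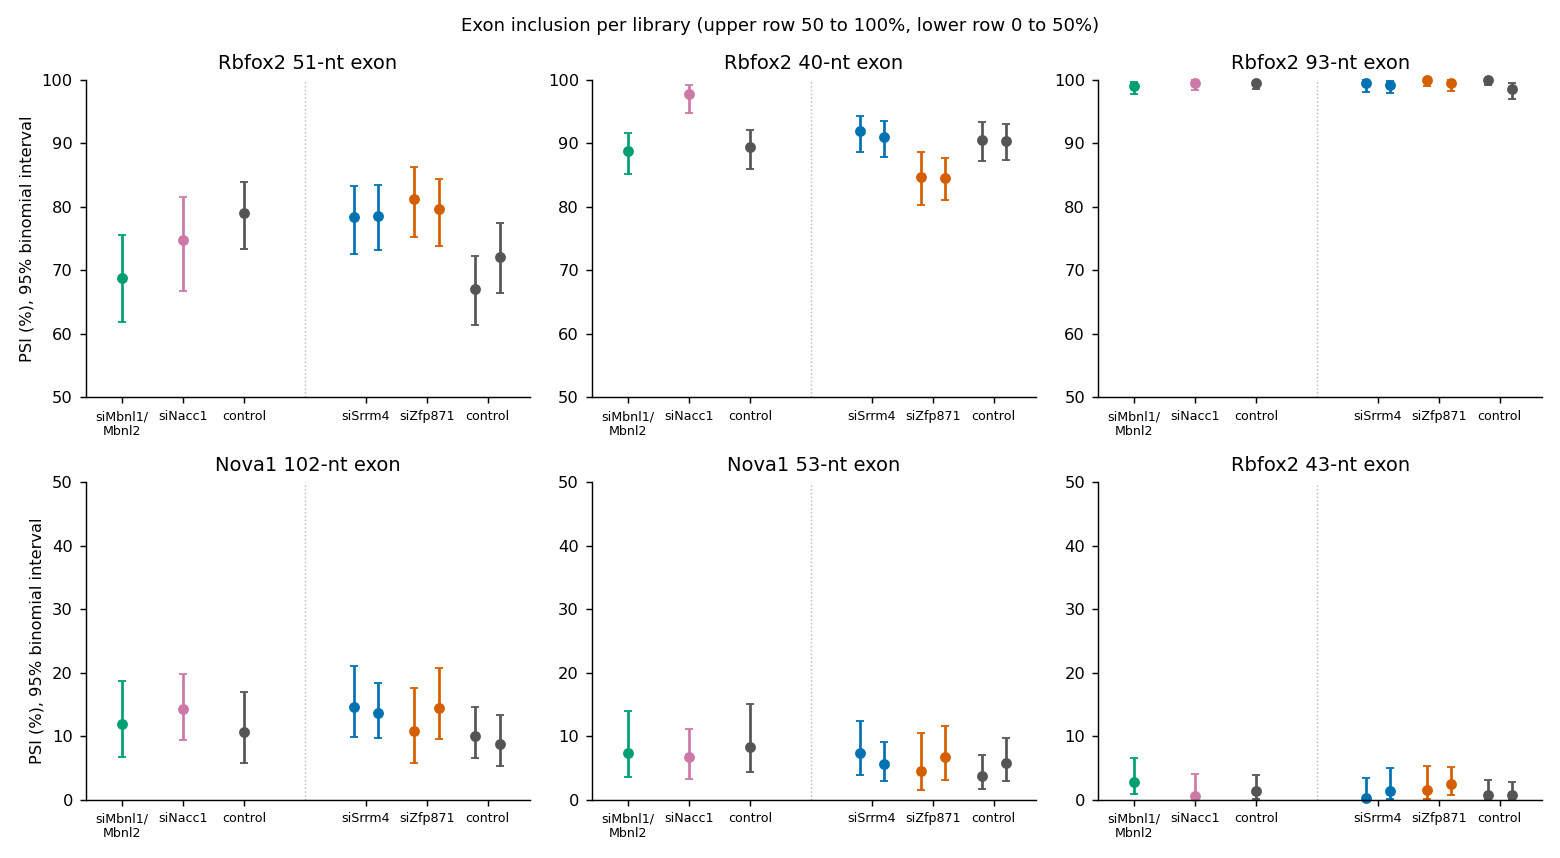
PSI in percent of 6 exons of Rbfox2 and Nova1 in each library, with 95% exact binomial intervals that cover counting error only. The upper row runs from 50 to 100% and the lower row from 0 to 50%. Within the second experiment the Rbfox2 51-nt exon is lowest in the control libraries, and over all libraries the 40-nt exon is highest after siNacc1.

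Nova1 contained its 72-nt exon almost without exception, at 99.5% to 100% over the 9 libraries on 275 to 683 reads, so skipping of the exon whose YCAY words are shown above was at 0.5% or less in each library. A 102-nt segment of Nova1 (chr12:47867277-47867378, mm9) was included at low levels. It was at 14.5% and 13.7% after siSrrm4 and 10.9% and 14.4% after siZfp871, against 9.97% and 8.81% in control. All knockdown libraries were above both control libraries. The differences were 4.73 points (edgeR adjusted p = 0.837) and 3.28 points (adjusted p = 0.909), not called. A 53-nt segment (chr12:47853601-47853653, mm9) was at 7.3% and 5.6% after siSrrm4 and 4.46% and 6.71% after siZfp871, against 3.79% and 5.79% in control, and these groups overlapped. The 102-nt segment in the first experiment was at 11.9% after siMbnl1/Mbnl2 and 14.2% after siNacc1, against 10.7% in control, and the 53-nt segment at 7.43% and 6.68%, against 8.35%. Nova2 included its 144-nt and 167-nt exons, which encode part of the protein, at similar levels in all groups, with differences from -1.93 to 0.165 points between groups of the second experiment.

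Rbfox1 exons rested on few reads, because the gene is expressed at low levels. Its 93-nt exon was at 95% and 100% after siSrrm4 and 100% and 92% after siZfp871, against 100% in both control libraries, on 22 to 56 reads. The first experiment had this exon at 80% to 100% with a median of 92%, on 18 to 34 reads. The 54-nt coding exon (chr16:7306501-7306554, mm9) was at 60% and 67.2% after siSrrm4 and 76.9% and 68.7% after siZfp871, against 77.8% and 68.4% in control, and the groups overlapped for siZfp871. The difference after siSrrm4 was -9.51 points (edgeR adjusted p = 0.888). A 240-nt exon (chr16:7224404-7224643, mm9), named here after its values were seen because 1 library had only 17 reads, was at 58% and 59.8% after siSrrm4 and 63.5% and 69.3% after siZfp871, against 79% and 76.1% in control. Its difference was -18.6 points after siSrrm4 (edgeR adjusted p = 0.837) and -11.1 after siZfp871 (adjusted p = 0.878).

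Of the Rbfox1 exons 7 had, in the first experiment, at least 20 reads in every library and a PSI between 5% and 95% in at least 1. After siMbnl1/Mbnl2 the 81-nt exon was at 28.9% (95% exact binomial interval 12.7% to 47.2%), against 58.8% in control (38.8% to 77.6%). The 53-nt exon, included at 58.1% after siMbnl1/Mbnl2 (40.7% to 75.4%) and 39.1% in control (21.1% to 61.3%), differed by 19.1 points the other way. After siNacc1 the 144-nt exon was at 84.9% (68.8% to 94%), against 60.8% in control (43.4% to 76%). Each of these 3 pairs of intervals overlapped, and the size rule asks for intervals that do not. The Rbfox1 40-nt exon was at 91.4% after siMbnl1/Mbnl2 and 83.7% after siNacc1, against 78.8% in control, and the 43-nt exon at 0% to 11.6% over these libraries, on 9 to 18 reads. As in Rbfox2, the 40-nt form was the more used. All 5 Rbfox3 exons were without reads in the 9 libraries.

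The 12-nt tandem acceptor of Rbfox2 was used at near equal levels on both sides. The upstream site, which adds the 12 bases shown in capitals, took 43.3% and 48.4% after siSrrm4 and 55% and 56.5% after siZfp871, against 51.1% and 45.3% in control (mm9 chr15:76928370-76928514). The siZfp871 libraries were the highest of the 6. Against control the difference was 7.56 points after siZfp871 (limma on the logit of PSI, adjusted p = 0.894) and -2.35 after siSrrm4 (adjusted p = 1), and siZfp871 against siSrrm4 gave 9.91 points (adjusted p = 0.86). The upstream site took, in the first experiment, 47.9% after siMbnl1/Mbnl2 and 46.3% after siNacc1, against 53.1% in control.

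The 3-nt tandem acceptors favoured the upstream site in every library. In Rbfox2 (chr15:76947351-76947497, mm9) the site that adds the 3 bases took 84.3% to 90.4% over the 9 libraries, on 366 to 1059 reads. In Nova1 (chr12:47812773-47812906, mm9) it took 83.0% and 91.1% after siSrrm4 and 87.9% and 79.3% after siZfp871, against 80.8% and 93.1% in control, on 26 to 56 reads, and the groups overlapped. This Nova1 pair lies within the 12524-nt intron downstream of the 72-nt exon, which had 290 to 683 reads in the same libraries. The percentages are shares among reads of the pair, not of all Nova1 transcripts. Of the 11 member splice sites tested, several of them the 2 choices of 1 event, 0 were called in the 3 comparisons, where 0.00815%, 0.00611% and 0.0143% of all sites were after siSrrm4, after siZfp871 and between them. With limma 0 of them had an unadjusted p under 0.05.

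**Figure D4:**
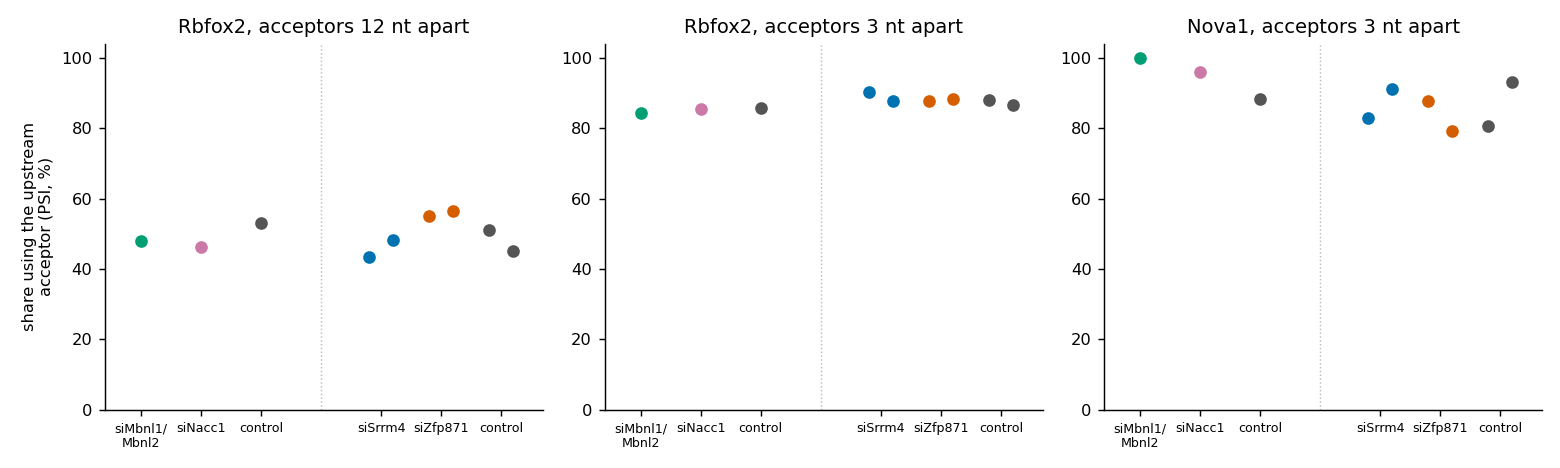
Use of the upstream acceptor of 3 tandem pairs, in percent of the use of both acceptors of the pair, 1 point a library, on an axis from 0. The Nova1 pair rests on 15 to 56 reads a library. The 12-nt pair of Rbfox2 lies between 43.3% and 56.5%, and its siZfp871 libraries are the highest of the second experiment.

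The 18 member introns tested were retained at 0% to 7.22% in the libraries of the second experiment. Of these 0 were called in any comparison, where 0.00436%, 0.00436% and 0.00218% of all introns were, and 0 had an unadjusted p under 0.05 with limma. Differences ran from -3.61 to 2.93 points. The intron of Nova1 downstream of its 72-nt exon (chr12:47801961-47814484, mm9) was retained at 4.71% and 2.13% after siSrrm4 and 2.7% and 5.63% after siZfp871, against 4.39% and 5.07% in control.

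The same Nova1 intron was, in the first experiment, at 10.6% after siMbnl1/Mbnl2 and 11.7% after siNacc1, against 10.3% in control. A 1371-nt intron near the 3′ end of Rbfox2 (chr15:76914637-76916007, mm9) was at 3.48% after siMbnl1/Mbnl2 and 11.5% after siNacc1, against 5.12% in control, and at 0.28% to 1.77% in the second experiment. The neighbouring 416-nt intron was at 4.79% after siMbnl1/Mbnl2 and 8.09% after siNacc1, against 4.97% in control, and at 0% to 1.06% in the second experiment. The experiments differ in this way over all introns: mean retention over 91226 introns lay between 4.1% and 4.24% in first-experiment libraries and between 1.8% and 2.57% in those of the second.

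Other tissue-regulated splicing regulators gave a background for the members. Of 40 listed genes 32 were tested. After siSrrm4 0 rose and 6 fell, where 1.41% and 3.29% of all genes did: Srrm4 itself, its relative Srrm3, the Elav-like genes Elavl3 and Elavl4, Msi1, an RNA-binding protein of neural progenitors, and Rbms3. After siZfp871 0 rose and 3 fell, where 0.751% and 2.14% of all genes did: Celf4, Raver1, a cofactor of Ptbp1, and Rbms3. Celf4 stood at 22.0 and 17.9 CPM after siZfp871, against 45.9 and 38.4 in control (log2 fold change -1.09, edgeR adjusted p = 0.0407), a change close to that of Nova1. Raver1 stood at 99.0 and 109.7 CPM, against 198.6 and 215.7 in control (edgeR adjusted p = 0.0223). The median of the 32 genes was -0.20 after siSrrm4 and -0.02 after siZfp871, beside -0.29 and -0.37 for the 4 members. Between siZfp871 and siSrrm4 6 of the 32 were higher after siZfp871, where 5.53% of all genes were. They were Elavl4, Hnrnph1, Msi1, Rbm38, Srrm3 and Srrm4, the last being the gene targeted in the siSrrm4 libraries. Lower were 2, Ptbp2 and Raver1, where 5.57% of all genes were. In the first experiment 2 of 30 passed the size rule after siMbnl1/Mbnl2, the targeted Mbnl1 and Mbnl2, and 0 after siNacc1.

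**Figure D5:**
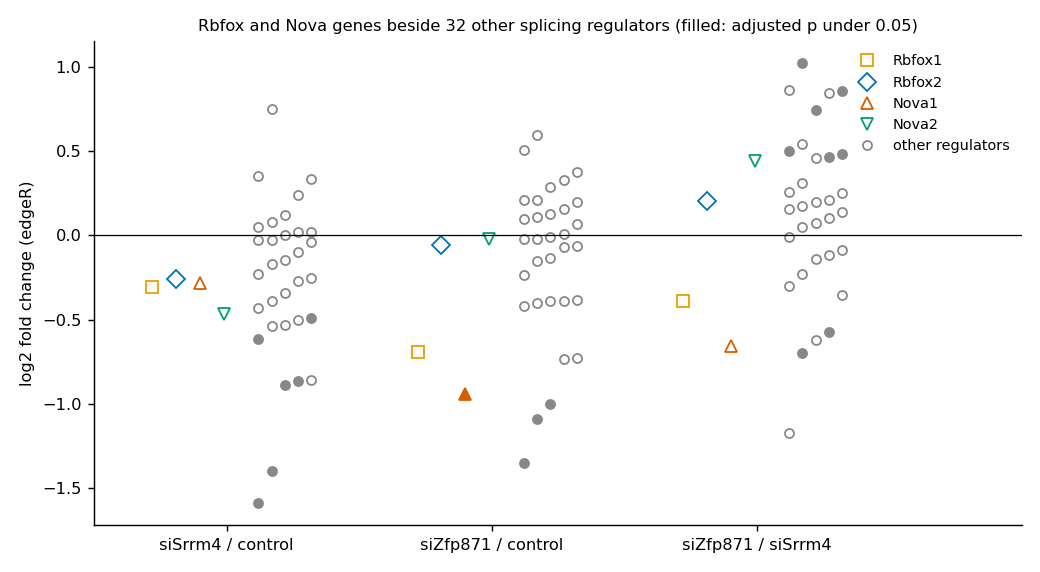
Log2 fold change in the second experiment of the 4 tested members (coloured symbols) and of 32 other splicing regulators (grey circles), for 3 comparisons, with filled symbols at an edgeR adjusted p under 0.05. Nova1 is the filled member, after siZfp871, beside 3 filled regulators that are also lower.

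Cassette exons of genes known to host Rbfox or Nova target exons were read from the same fit. In 9 Rbfox host genes 33 exons were tested and in 13 Nova host genes 67, and 0 were called in any comparison of the second experiment, where 0% of all exons were in each. At an unadjusted p under 0.05 with edgeR there were 7, 4 and 5 of the 33 and 14, 7 and 5 of the 67 after siSrrm4, after siZfp871 and between them. That is 21.2%, 12.1% and 15.2% of the Rbfox host exons and 20.9%, 10.4% and 7.46% of the Nova host exons, beside 5.14%, 4.34% and 4.79% of all exons tested. Exons of 1 gene share its reads, and the lists were chosen with earlier results known, so these shares are a description. The median absolute difference of the Nova host exons was 2.8 points after siSrrm4 and 2.31 after siZfp871, and that of the Rbfox host exons 1.4 and 1.45, against 1.49 over all exons.

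The first experiment had 55 exons of the Rbfox host genes and 147 of the Nova host genes with enough reads. Of these, 2 passed the size rule after siMbnl1/Mbnl2, where 0.534% of all exons did, and 2 after siNacc1, where 0.498% did. A 27-nt exon of Clasp1, a microtubule plus-end protein, was at 77.7% after siMbnl1/Mbnl2 and 73.3% after siNacc1, against 39.2% in control. A 24-nt exon of the transcription factor gene Mef2a was at 45.6% after siMbnl1/Mbnl2, against 24.2% in control, and at 11.4% after siNacc1. A 111-nt exon of Enah, an actin regulator, was at 71.9% after siNacc1, against 92.3% in control. In the second experiment the exon of Clasp1 was at 15.4% and 16.0% after siSrrm4 and 19.1% and 23.8% after siZfp871, against 33.3% and 45.2% in control, not called. In the same libraries the Mef2a exon was at 6.91% and 5.54% after siSrrm4 and 11.5% and 8.22% after siZfp871, against 23.6% and 19.6% in control. Whether these exons respond to the members' levels in N2A cells was not tested, since no member was a target of the siRNAs.

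Over the 6 libraries of the second experiment Rbfox1 and Nova1 followed each other, with a Pearson correlation of log2 CPM of 0.961, while each had a correlation with Rbfox2 and Nova2 between -0.107 and 0.0805. Rbfox2 and Nova2 had a correlation of 0.655. The genes most like Nova1 were Epc1 (0.995), Hcn4 (0.987) and Hivep2 (0.986), and those most like Rbfox1 were Cutc (0.998), Pafah1b2 (0.995) and Irgm1 (0.992). Rbfox2 was most like Lman2l (0.995), Gpcpd1 (0.993) and Ntan1 (0.993), and Nova2 most like Ankhd1 (0.998), Heg1 (0.997) and Nat15 (0.997). These values describe 6 libraries in 3 groups, which share their knockdowns and depth, and 281 to 473 of 12378 genes had a correlation above 0.9 with a member.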

How the data were processed

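PolyA RNA of 9 N2A libraries was sequenced. Read counts per gene, cRPKM (RPKM-type values, the c not explained in the sources used here), log2 fold changes, FDR p-values and percent spliced in (PSI) were deposited by the authors. Per the submitters' processing notes CASAVA 1.8, edgeR and mm9 were used. Per the series design text splicing was measured with vast-tools. The sources used here do not give its version, the treatment of reads shared between paralogs or which of 2 RNA kits a library had. Of 22667 entries 1114 had no counts, and 23 value columns were not used, among them cRPKM and PSI of the second experiment, since 1 kind of value a library was taken from those tables. There PSI was computed from the inclusion and exclusion reads.

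The second experiment was fitted once over 6 libraries with edgeR 4.0.16 (R 4.3.3): genes by quasi-likelihood on counts after filterByExpr and TMM, cassette exons on inclusion and exclusion reads (at least 10 reads in each library, PSI from 2 to 98 in at least 1). Exons had 1 common dispersion and a quasi-likelihood dispersion each, with no abundance trend. Introns and splice sites were tested with limma 3.58.1 on the log2 odds of PSI, with 1 point added to each side. Calls needed an adjusted p under 0.05 and, for splicing, 10 points. The first experiment, with 1 library a group, had no test: genes needed 50 counts and a log2 fold change of 1 in size (prior count 2), exons 20 reads, 20 points and separate 95% intervals. Poisson and binomial intervals and floors cover counting error only. The 95% intervals of log2 fold changes in the second experiment are a t quantile times the edgeR quasi-likelihood standard error. They therefore also include the estimated spread between libraries. The scripts were tested on simulated data.

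The members and lists were chosen with earlier results of these data known. All 5 members were named, with member events of at least 20 reads in every library of an experiment and a PSI between 5 and 95 in at least 1, and listed regulators that were called. Some genes of the marker lists are not reported here. Alternatives were DESeq2 1.42.0, RLE factors, other filters and offsets, and each library left out.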

Additional observations from a re-analysis of the deposited data

How the results depend on the processing

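In the second experiment the direction of each member's log2 fold change was the same under every alternative run, except Nova2 after siZfp871 against control, and 0 member splicing events were called under any setting. Leaving out 1 library, which assumes that a lone library varies like the other groups, moved Nova2 after siZfp871 between -0.21 and 0.22. It also turned the sign of small PSI differences, in points. After siZfp871 against control these were -4.95 to 4.42 (Rbfox1 54-nt exon), -0.33 to 1.92 (Nova1 53-nt), -2.03 to 0.9 (Nova1 12524-nt intron) and -2.83 to 9.51 (Nova1 downstream acceptor). After siSrrm4 against control they were -0.68 to 6.54 (Nova1 1586-nt intron), -6.26 to 6.08 (Nova1 acceptor) and -0.57 to 5.27 (Rbfox2 12-nt pair, downstream acceptor). Between siZfp871 and siSrrm4 they were -5.5 to 2.5 (Rbfox1 93-nt), -3.23 to 0.32 (Nova1 102-nt), -1.99 to 0.26 (Nova1 53-nt), -0.72 to 2.21 (Nova1 12524-nt intron), -0.86 to 7.72 (Nova1 acceptor) and -0.195 to 2.26 (Rbfox2 3-nt pair, downstream acceptor). Counts over the whole tables moved more, and the causes were not tested. In the order siSrrm4 against control, siZfp871 against control, siZfp871 against siSrrm4, genes called were 582, 358 and 1374, with DESeq2 1750, 1350 and 2430. With only the 4 libraries compared they were 0 and 178 in the first pair of comparisons (3072 and 2613 genes had an unadjusted p under 0.05 in the 6-library fit), and with 1 library left out 0 to 180, 0 to 211 and 0 to 1179. Exons called were 0 in each comparison (1042, 879 and 970 at an unadjusted p under 0.05), also with a library left out, and 282, 185 and 169 with a likelihood ratio test. After siSrrm4 they were 25 with an abundance trend in the dispersions (added after seeing the data) and 11 with limma. Introns called were 4, 4 and 2, with a library left out 0 to 57, 0 to 68 and 0 to 30, with an offset of 5 there was 1 after siSrrm4 and 0 between the knockdowns, and 0 with a PSI filter from 2 to 98 (also added). Splice sites called were 4, 3 and 7, with a library left out 4 to 32, 6 to 32 and 7 to 36, 2 after siSrrm4 with an offset of 5, and 0 with the PSI filter. In the first experiment, after siMbnl1/Mbnl2 and after siNacc1, a minimum of 10 counts gave 350 and 645 genes and a minimum of 10 points 436 and 462 exons.

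Libraries with the same column letter deviated together over 12378 genes (correlations 0.637, 0.749 and 0.662), but the labels do not say that letters pair libraries. With the letter as a replicate block, called genes numbered 4565, 3854 and 5191, called exons 0 and called introns 0 in each comparison, and called splice sites 0 after siSrrm4 and 2 between the knockdowns. With that block Nova1 (-0.28, edgeR adjusted p = 0.0143), Nova2 (-0.45, 0.000279) and Rbfox2 (-0.26, 0.0104) passed after siSrrm4, Rbfox1 after siZfp871 (-0.69, 0.00168), and all 4 between the knockdowns.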
